A study of Mus musculus with 2 samples.

Results

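The Schlafen genes are a family of vertebrate genes that, in the mouse, sit side by side in 1 cluster on chromosome 11. Of the 37074 gene names with a transcript probe on the array, 7 were taken as the family, all probes named Slfn1, Slfn2, Slfn3, Slfn4, Slfn5, Slfn8 or Slfn9, which gave 13 probes. Between them they were read in primary hepatocytes of Drp1LiKO mice (Alb-Cre, Drp1 flox/flox), which lack the mitochondrial fission protein Drp1 in hepatocytes, and of control mice (Drp1 flox/flox littermates without Cre, called wild type in the labels). Both groups have a C57BL/6 background and carry floxed Drp1. The Cre is driven by the albumin promoter, which is active in hepatocytes. Cells were taken from liver by collagenase digestion, pelleted at low speed, plated on collagen and harvested 24 h after seeding. The methods give an age range and sex (young adult males) for purchased C57BL/6J mice and none for the crossed mice used here, and whether a culture came from 1 mouse or from pooled mice is not given in the sources used here.

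There was 1 array per genotype, so nothing was tested, and every difference given here is one between 2 arrays. In Drp1LiKO cells, Slfn2 was 5.54-fold higher than in control cells. Slfn8 was at least 24.5-fold higher at 1 of its 2 probes. At the other it was at least 1.57-fold higher, which did not pass the threshold used. Slfn5 rose at 2 probes in the 3' part of its transcript, at least 5.76-fold and 4.15-fold, the second of which did not pass under 3 other settings, and had a log2 ratio of -0.43 at a probe near its start, which did not pass the threshold used. Slfn9 had a ratio of -0.03 at the probe that lists Slfn9 alone. Slfn1, Slfn3 and Slfn4 were not well above background on either array.

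Schlafen proteins share a core domain that binds RNA, and several of them cleave transfer RNA or protect it from cleavage, by which they act on protein synthesis. The short members, Slfn1 and Slfn2, consist of little more than this core, Slfn3 and Slfn4 are intermediate, and the long members, Slfn5, Slfn8 and Slfn9, carry in addition a helicase-like domain. Many members are induced by type I interferon. They are best known from T cells and from myeloid cells such as monocytes and macrophages, and less from hepatocytes.

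Levels are processed signals, a linear intensity with the background of each spot subtracted, which cannot be compared between probes. The ratio of a probe is the log2 of its Drp1LiKO signal minus the log2 of its control signal, each after subtraction of the 75th percentile of the array (a signal of 313 in control and 356 in Drp1LiKO cells). Where a probe was too dim on an array to count as well above background, the lowest signal that did count there was put in its place (18.2 in control, 15.0 in Drp1LiKO cells), so that such a ratio is a bound. The Z score is a probe's ratio less the mean of the 30275 probes compared, those that one array or both read well above background, divided by their SD of 0.65. A Z score of 2, the criterion named in the study, was reached at a log2 ratio of 1.30, or 2.46-fold. Every Schlafen probe was printed as 1 spot on each array. Spot noise, taken from 300 probes printed 10 times, gave the ratio of these probes an SD of 0.10 to 0.21, which covers the array and not the spread between mice or cultures.

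The labels could be checked against the targeted gene and against markers of the cell type. Dnm1l, which encodes Drp1, read 2602 in control and 1217 in Drp1LiKO cells at its brighter probe, a log2 ratio of -1.28 (Z -1.95), and 22.8 and 20.9 at its other probe. The place of these probes relative to the floxed part is not given in the sources used here. All 12 hepatocyte markers were detected, 11 of them on both arrays, with a median ratio of 0.10. Pck1 was not well above background in control cells.

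**Figure D1:**
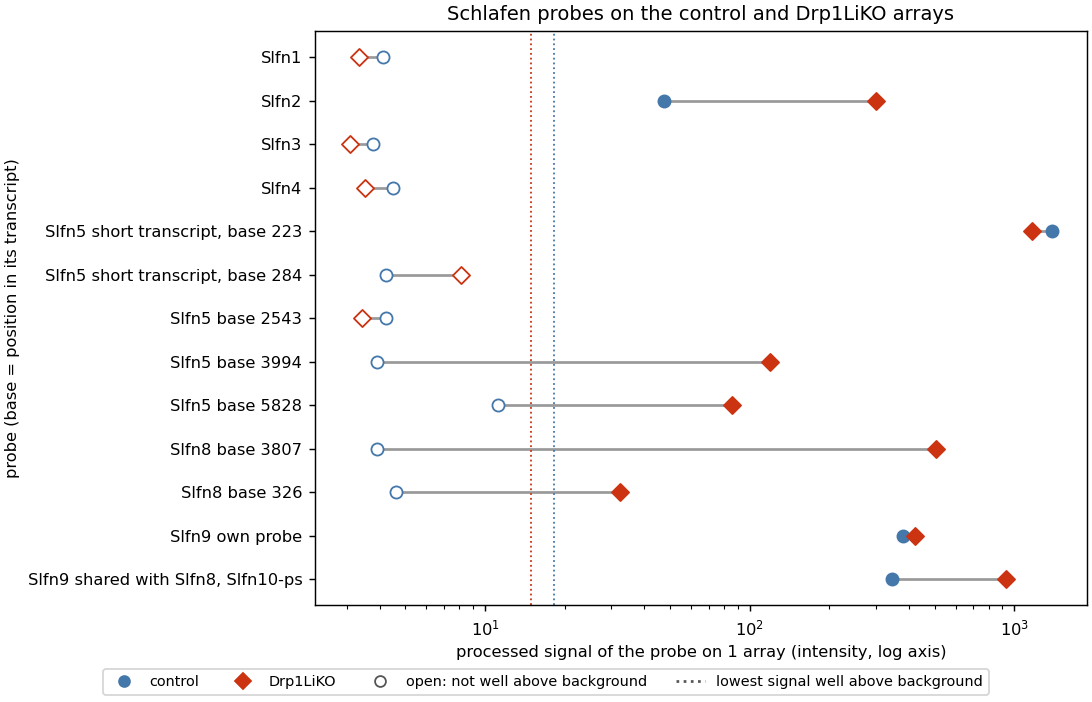
Processed signal of each of the 13 Schlafen probes (1 row each, log axis) on the control array (circles) and the Drp1LiKO array (diamonds), 1 array per genotype, where open symbols were not well above background and dotted lines mark the lowest signal that was. Slfn2 runs from 47.6 to 299 and the Slfn8 probe at base 3807 from 3.91 to 507, while the probes of Slfn1, Slfn3 and Slfn4 stay below both limits.

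Of the 13 probes, 4 were well above background on both arrays, 4 on the Drp1LiKO array alone, none on the control array alone and 5 on neither. Among all probes compared, 9.97% (3019 probes) were well above background in Drp1LiKO cells alone. Of the 8 Schlafen probes detected, 6 had a ratio above 0, and 4 passed the threshold in the direction of Drp1LiKO, against 2.94% of all probes compared (890 of 30275). None passed it in the other direction. With each gene taken at its brightest probe, 2 of the 4 genes detected passed, Slfn2 and Slfn8, against 3.5% of all genes (705 of 20165). The median over the 4 genes was 1.86, beside -0.05 over all genes. These counts and this median are not evidence of a shared direction. Slfn8 and 2 of the Slfn5 probes were kept only because they were bright on the Drp1LiKO array. Their ratios could hardly fall below 0, and 3 of the 7 genes gave no ratio.

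Slfn2, a short member that T cells and monocytes need to stay quiescent and that shields transfer RNA from cleavage, had a single probe on the array (NM_011408, plus strand, mm9 chr11:82883791-82883850). Its sequence is shown because it carries the clearest ratio measured on both arrays.
Slfn2 probe: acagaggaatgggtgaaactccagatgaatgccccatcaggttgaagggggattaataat
Its signal was 47.6 in control and 299 in Drp1LiKO cells, both well above background. This is a log2 ratio of 2.47 (Z 3.80), with a spot noise SD of 0.18. Of the 17735 genes measured on both arrays, 93 had a larger ratio. The genes nearest to it by ratio were Ly6d (2.47), Kdr (2.47), which encodes a receptor of vascular endothelial growth factor, and Pfkfb4 (2.48), which encodes an enzyme of glycolytic control. Slfn2 passed the threshold under all 12 settings tried, from 1.55 to 2.73 on the log2 scale. The lowest of these values, under normexp background correction, was less than the reported one by over 1.5 times.

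Slfn8, a long member related to human Schlafens that cleave RNA, had 2 probes on the minus strand. The 3' probe lies at base 3807 of the RefSeq transcript NM_181545 (mm9 chr11:82815804-82815863). The 5' probe lies at base 326 of another Slfn8 transcript, NM_001167743 (mm9 chr11:82830985-82831044). Both list the Ensembl transcript ENSMUST00000108152. They are printed since they gave bounds of very different size.
Slfn8 probe at base 3807: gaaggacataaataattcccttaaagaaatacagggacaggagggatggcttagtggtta
Slfn8 probe at base 326: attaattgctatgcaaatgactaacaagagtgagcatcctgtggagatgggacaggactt
The 3' probe read 3.91 in control cells, not well above background, and 507 in Drp1LiKO cells. Against the lowest signal well above background this was at least 24.5-fold higher, a log2 ratio of at least 4.61 (Z 7.09). The 5' probe read 4.60 and 32.5, again only the second well above background, at least 1.57-fold higher (0.65, Z 1.01). Both probes were thus detected in Drp1LiKO cells alone, and a bound of 1.57-fold does not limit how large the change was at that probe. The 3' probe passed the threshold under all 11 settings that gave it a value, from 2.71 with normexp background correction to 6.83 with dim signals used as they stood. The first adds an offset of 50 and the second applies no floor. The 5' probe ranged from 0.02 with normexp to 2.64 with no floor, and passed only under the latter, 1 of 11 settings.

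Slfn9, another long member next to Slfn8, had 2 probes on the minus strand which disagreed. One lists a transcript of Slfn9 alone (mm9 chr11:82793812-82793871). The other (mm9 chr11:82794408-82794467) lists transcripts of Slfn9, Slfn8 and the pseudogene Slfn10-ps, so that signal from the 3 genes cannot be told apart there. The pair is printed because the direction given for Slfn9 rests on which of them is read.
Slfn9 own probe: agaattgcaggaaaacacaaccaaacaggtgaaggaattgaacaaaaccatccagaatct
Slfn9 shared probe: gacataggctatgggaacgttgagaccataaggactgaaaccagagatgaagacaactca
The own probe read 381 in control and 423 in Drp1LiKO cells, both well above background, a ratio of -0.03 (Z -0.04) after scaling. The shared probe read 345 and 932, also well above background on both arrays, 2.38-fold higher (1.25, Z 1.93), just short of the threshold. The deposited normalized values gave the own probe a ratio of 0.35. Over 12 settings the shared probe passed the threshold in 6 and the own probe in 0. Slfn10-ps, which is no member of the list but is named on the shared probe, had 2 probes of its own. They read 121 and 420 (1.61, Z 2.48) and 6.12 and 63.8 (at least 1.63, Z 2.50). Both Slfn10-ps probes passed the threshold. The 13 Schlafen probes share no run of bases longer than 9 with each other.

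Slfn5, a long member found in the nucleus and induced by interferon in several cell types, had 5 probes on the plus strand, more than any other member. Of these, 2 belong to an Ensembl transcript (ENSMUST00000150687) at the start of the gene and 3 to the RefSeq transcript NM_183201. The 4 printed here are the bright probe at the start, its neighbour 61 bases further on, and the 2 that rose.
Slfn5 start probe, mm9 chr11:82765536-82765595: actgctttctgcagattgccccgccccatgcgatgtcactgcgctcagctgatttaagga
Slfn5 neighbour probe, mm9 chr11:82765597-82765656: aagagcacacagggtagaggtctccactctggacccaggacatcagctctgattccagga
Slfn5 probe at base 3994, mm9 chr11:82776358-82776417: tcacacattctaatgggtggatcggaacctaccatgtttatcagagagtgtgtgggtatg
Slfn5 probe at base 5828, mm9 chr11:82778192-82778251: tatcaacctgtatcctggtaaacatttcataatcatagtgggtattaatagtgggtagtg
The start probe read 1383 in control and 1163 in Drp1LiKO cells, a ratio of -0.43 (Z -0.65), well above background on both arrays. Its neighbour, assigned to the same transcript, read 4.21 and 8.13 and was not well above background on either. The probe at base 3994 read 3.91 and 119, at least 5.76-fold higher (2.53, Z 3.89), and that at base 5828 read 11.2 and 85.8, at least 4.15-fold higher (2.05, Z 3.16). Both were well above background in Drp1LiKO cells alone. The probe at base 3994 passed the threshold under all 11 settings that gave it a value, from 1.07 with normexp to 4.75 with no floor. The probe at base 5828 passed under 8 of 11. It fell short with normexp (0.72, Z 1.84), with the deposited values (1.14, Z 1.76) and with the Z score among probes of similar signal (Z 1.86). The fifth probe, at base 2543 (mm9 chr11:82774907-82774966), read 4.23 and 3.43 and was not well above background on either array. By sequence, the start probe lies from base -68 to base -9 before the RefSeq start of Slfn5, outside NM_183201 as RefSeq draws it, while its neighbour spans that start. The brightest-probe rule therefore reads Slfn5 from a place where the RefSeq transcript has no exon, and the gene's ratio turned from -0.43 to 2.05 with the median of its probes.

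Slfn1, which slows the growth of thymocytes when overexpressed, Slfn3, and Slfn4, a member expressed in myeloid cells, had 1 probe each on the plus strand of chromosome 11. Slfn1 (mm9 chr11:82935656-82935715) read 4.11 and 3.35, Slfn3 (mm9 chr11:83028431-83028490) 3.77 and 3.09, and Slfn4 (mm9 chr11:83002974-83003033) 4.48 and 3.53 in control and Drp1LiKO cells. All lay below the lowest signal well above background on both arrays, so no ratio is given and no level can be ordered between the genotypes. Slfn14 and the antisense gene Slfn5os in the same cluster, and the more distant relative Slfnl1, were likewise not well above background on either array.

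**Figure D2:**
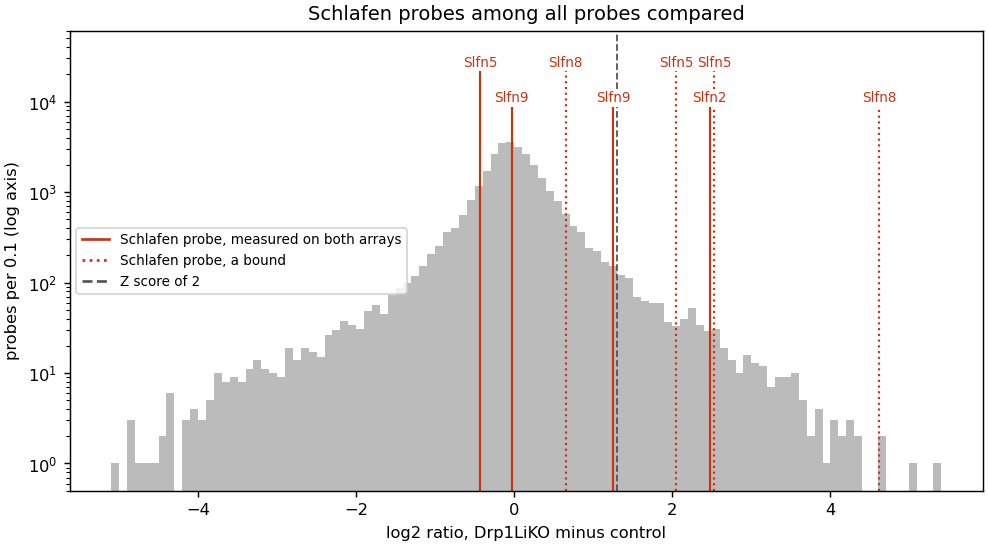
Number of probes per 0.1 of the log2 ratio (log axis) for all 30275 probes compared, with vertical lines at the 8 Schlafen probes detected, solid where measured on both arrays and dotted where the ratio is a bound. 4 of the 8 lines lie beyond the dashed line at a Z score of 2, which 2.94% of all probes passed, and the Slfn8 line at 4.61 lies in the outermost part of the distribution.

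The 13 probes span 263 kb. Within 300 kb on either side and between them lay probes of 25 other genes, of which 18 were detected. At the brightest probe, 1 of the 18 passed the threshold, Unc45b, which encodes a chaperone of myosin and lies at -9.06 kb from the first Slfn5 probe. It read 18.7 in control and 105 in Drp1LiKO cells (2.30, Z 3.54), the control value lying just above the detection limit. The other 17 ranged from -0.60 (AA465934) to 0.48 (Rasl10b), and the median over the 18 was 0.09. The ratios past the threshold thus lay from Unc45b to Slfn2, and several of them are bounds. Not every probe in this stretch was higher: the start probe of Slfn5 had -0.43 and the own probe of Slfn9 -0.03. The probes of Slfn1, Slfn4 and Slfn3, further along the chromosome, were not well above background.

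**Figure D3:**
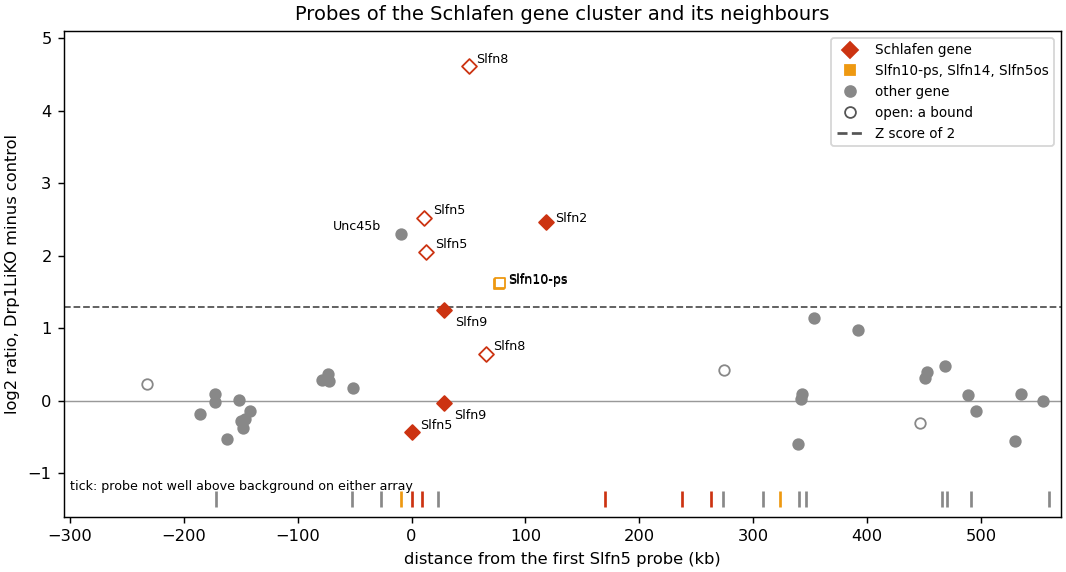
Log2 ratio of each detected probe against its distance in kb from the first Slfn5 probe, for Schlafen genes (diamonds), related entries (squares) and other genes (circles), with open symbols for bounds and ticks for probes not well above background on either array. The points beyond the dashed line at a Z score of 2 belong to Slfn5, Slfn8, Slfn10-ps, Slfn2 and Unc45b, and the highest of the other flanking probes is at 1.14.

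Promoters of 5 members are shown to set their sequence beside the ratios. RefSeq gave a window of 250 bases before to 50 after the start for all 7 members (GRCm38.p6), searched on both strands for the core of the interferon-stimulated response element (GAAANNGAA), the gamma-activated site (TTCNNNGAA) and the core of the PU.1 site (GAGGAAGT). A further word, ACTTCCTGG, which holds the core read by ETS factors, was chosen after the promoters had been read, because several of them shared it, so its count among the members was fixed by that choice and is a description only. Capitals mark the matches, in Slfn5, Slfn8 and Slfn9 to the first of these words and in Slfn2 and Slfn4 to the last.
Slfn5, plus strand, chr11:82951852-82952151: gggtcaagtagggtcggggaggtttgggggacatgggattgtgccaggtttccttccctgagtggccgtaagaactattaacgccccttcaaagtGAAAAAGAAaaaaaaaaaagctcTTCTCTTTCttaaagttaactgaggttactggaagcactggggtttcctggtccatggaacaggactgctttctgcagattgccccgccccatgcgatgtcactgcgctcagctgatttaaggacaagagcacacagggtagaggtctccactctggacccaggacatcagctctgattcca
Slfn8, minus strand, chr11:83020761-83021060: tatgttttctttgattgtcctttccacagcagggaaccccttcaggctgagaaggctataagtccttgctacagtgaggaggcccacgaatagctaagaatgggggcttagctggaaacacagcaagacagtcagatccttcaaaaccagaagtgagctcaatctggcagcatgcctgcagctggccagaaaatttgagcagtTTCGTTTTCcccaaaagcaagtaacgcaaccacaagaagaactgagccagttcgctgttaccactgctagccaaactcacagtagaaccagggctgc
Slfn9, minus strand, chr11:82991781-82992080: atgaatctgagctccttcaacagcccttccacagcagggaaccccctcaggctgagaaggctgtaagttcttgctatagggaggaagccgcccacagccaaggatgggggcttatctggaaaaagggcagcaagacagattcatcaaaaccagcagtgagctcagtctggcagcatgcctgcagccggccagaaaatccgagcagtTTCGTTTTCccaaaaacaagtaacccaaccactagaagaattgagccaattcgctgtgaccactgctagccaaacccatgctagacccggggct
Slfn2, plus strand, chr11:83064862-83065161: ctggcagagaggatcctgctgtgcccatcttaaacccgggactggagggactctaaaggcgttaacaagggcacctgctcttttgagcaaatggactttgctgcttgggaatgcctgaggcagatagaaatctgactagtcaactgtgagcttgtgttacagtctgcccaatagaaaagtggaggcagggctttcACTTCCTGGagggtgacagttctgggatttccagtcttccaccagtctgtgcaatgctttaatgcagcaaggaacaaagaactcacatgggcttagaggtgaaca
Slfn4, plus strand, chr11:83174936-83175235: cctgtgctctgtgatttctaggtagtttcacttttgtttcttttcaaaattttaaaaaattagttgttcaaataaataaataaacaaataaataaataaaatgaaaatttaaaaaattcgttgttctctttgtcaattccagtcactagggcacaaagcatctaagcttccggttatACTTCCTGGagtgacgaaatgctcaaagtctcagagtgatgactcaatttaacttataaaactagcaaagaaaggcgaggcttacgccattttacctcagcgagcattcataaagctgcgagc
The response element core was found in 3 of the 7 members, the long ones, 2 times in Slfn5 (from bases -155 and -132) and once each in Slfn8 (from -47) and Slfn9 (from -44), where the letters are the same. It is present in 8.56% of the 32851 windows of all genes. Slfn1, Slfn2, Slfn3 and Slfn4 held none. The gamma-activated site (8.30% of windows) and the PU.1 core (3.20%) were in no member. ACTTCCTGG was found in the other 4 members, Slfn1 (from -74), Slfn2 (from -55), Slfn3 (from -42) and Slfn4 (from -73), and in 0.843% of all windows. The windows of Slfn8 and Slfn9 were identical at 80.8% of their aligned positions, and the next pair, Slfn1 and Slfn8, at 53.0%. Set beside the arrays, the members that hold the response element core are Slfn5, Slfn8 and Slfn9. Slfn8 passed the threshold at its probe at base 3807 and not at that at base 326, and the own probe of Slfn9 had a ratio of -0.03. Slfn5 passed at the probes at bases 3994 and 5828 (at least 2.53 and 2.05) and had -0.43 at its start probe. The members that hold ACTTCCTGG are Slfn2, which passed, and 3 that were not detected. A match is a run of letters and not a measured site, and no match says only that these letters are not in the window.

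Interferon genes were counted from lists chosen with earlier results of these arrays known, among which the response genes had already been seen to be high. Of 36 interferon-induced genes on the array, 35 were detected, 31 of them on both arrays. The rest of the 35, well above background in Drp1LiKO cells alone, gave bounds that could hardly fall below 0. Of the 35, 34 had a ratio above 0 and 26 passed the threshold, with a median of 2.38. Rsad2, an antiviral enzyme, had the highest ratio of those measured on both arrays (5.36) and Ifit2, which binds viral RNA, the lowest (-0.33), and Epsti1 was not detected. Slfn2, at 2.47, lay near the middle of this list.

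Genes of interferon signaling were counted by their role. Of 7 interferon ligands on the array, 2 were detected: Ifnb1, the type I interferon beta, read 6.27 and 93.3 (at least 2.17) and passed the threshold, and Ifnl3 had a ratio of 0.39. Ifna2, Ifna4, Ifnk, Ifne and Ifng were not well above background. None of the 6 receptors passed, with a median of -0.06 and a range from Il10rb (-0.15) to Ifnlr1 (0.85), and none of the 3 kinases, from Jak1 (-0.22) to Tyk2 (0.43). Of 7 transcription factors 3 passed, among them Irf7 (1.97) and Stat2 (1.35), which also stand in the list of interferon-induced genes, while Irf1 had a ratio of -0.19. Of 3 inhibitors, Usp18, which damps the receptor and stands in both lists, passed (2.41), and Socs1 had a ratio of 0.12. Over the 21 signaling genes detected the median was 0.39.

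Genes of transfer RNA cleavage and repair and of ribosome sensing, the processes in which Schlafen proteins act, were all detected (16 of 16) and none passed the threshold. Their median was 0.14, from -0.30 for Trdmt1, a transfer RNA methyltransferase, to 0.37 for Rnh1, the inhibitor of RNases that cleave transfer RNA.

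**Figure D4:**
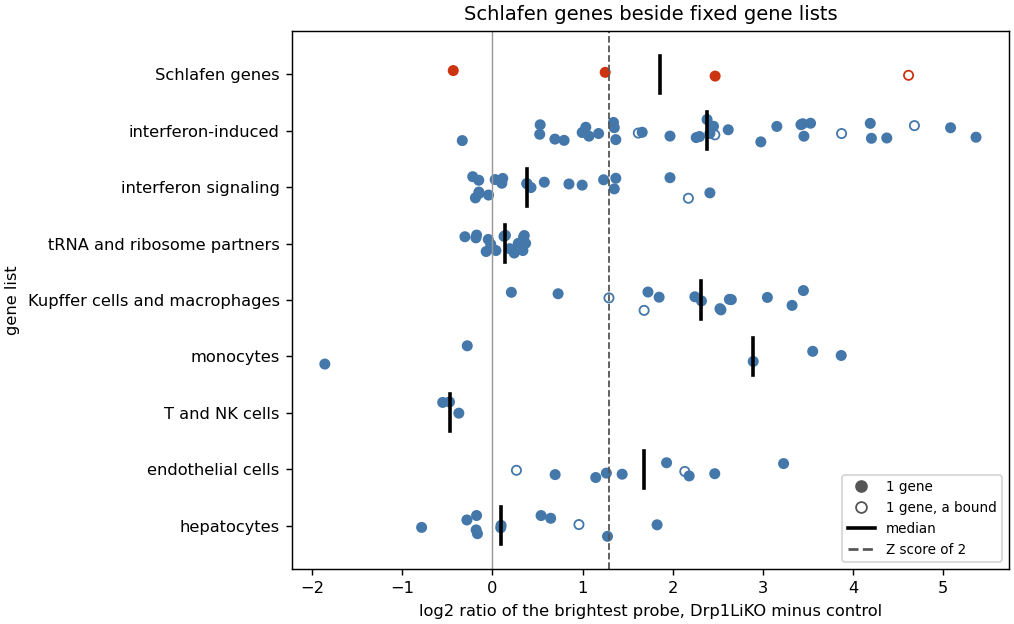
Log2 ratio of each detected gene at its brightest probe (1 point per gene, open where a bound) for the 4 Schlafen genes detected and for lists of interferon, transfer RNA and cell type marker genes, with black bars at the medians. The Schlafen median of 1.86 is set by 4 genes from -0.43 to 4.61, the interferon-induced and macrophage lists have medians of 2.38 and 2.32, and the transfer RNA and hepatocyte lists have medians of 0.14 and 0.10.

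Markers of other liver cells were counted in the same way. Of 17 markers of Kupffer cells and macrophages on the array, 15 were detected, 12 of them on both arrays. The rest of the 15, well above background in Drp1LiKO cells alone, gave bounds that could hardly fall below 0. All 15 had a ratio above 0 and 12 passed the threshold, with a median of 2.32, from Cd14 (0.21) to Marco (3.45). Their summed signal, in units of the 75th percentile of each array and weighted to bright probes, was 36.5 in control and 85.7 in Drp1LiKO cells, and Timd4 and Cd163 were not well above background. Of 7 monocyte markers 5 were detected, of which 3 passed upward and 1 downward, from S100a4 (-1.86) to Ly6c1 (3.87). Their sum was 89.9 and 50.0, a direction set by S100a4 alone, since without it the sum was 15.0 and 29.3, and Ccr2 and F13a1 were not well above background. All 10 endothelial markers were detected, 8 of them on both arrays, and 6 passed. Their median was 1.69 and their sum 13.6 and 25.9, and without Egfl7 the sum was 1.54 and 6.38. Of 9 stellate cell markers 7 were detected, 3 of them on both arrays, with a median of 1.04. The 3 that passed were Dcn and, as bounds, Pdgfrb and Col3a1. The sum was 1.22 and 12.8, and without Dcn it was 0.57 and 2.02. Lrat and Hand2 were not well above background. The part of these cells in the Schlafen ratios was not tested. In RNA of a whole culture, more cells of a type and more RNA per cell cannot be told apart.

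Markers of lymphocytes and granulocytes were mostly undetected. Of 12 markers of T and NK cells, 3 were detected, none passed, and their median was -0.47, with Cd3d, Cd3g, Cd2, Cd8a, Ncr1, Klrb1c, Nkg7, Gzma and Il7r not well above background on either array. Their summed signal was 4.61 in control and 3.35 in Drp1LiKO cells. Of 7 B cell markers 3 were detected and none passed (sums 0.09 and 0.22). Of 7 dendritic cell markers 1, Siglech, was detected and did not pass, so the sums (83.7 and 88.8) are of this gene alone. Of 10 neutrophil markers 4 were detected and 1 passed, Ly6g, which gave a bound (sums 54.9 and 61.7). Without Csf3r the neutrophil sums were 2.03 and 2.05. The cholangiocyte markers, of which 4 of 5 were detected, held none past the threshold (sums 93.7 and 70.0). Hepatocyte markers summed to 2133 in control and 2163 in Drp1LiKO cells, with 1 of 12 past the threshold, Ahsg (1.83).

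**Figure D5:**
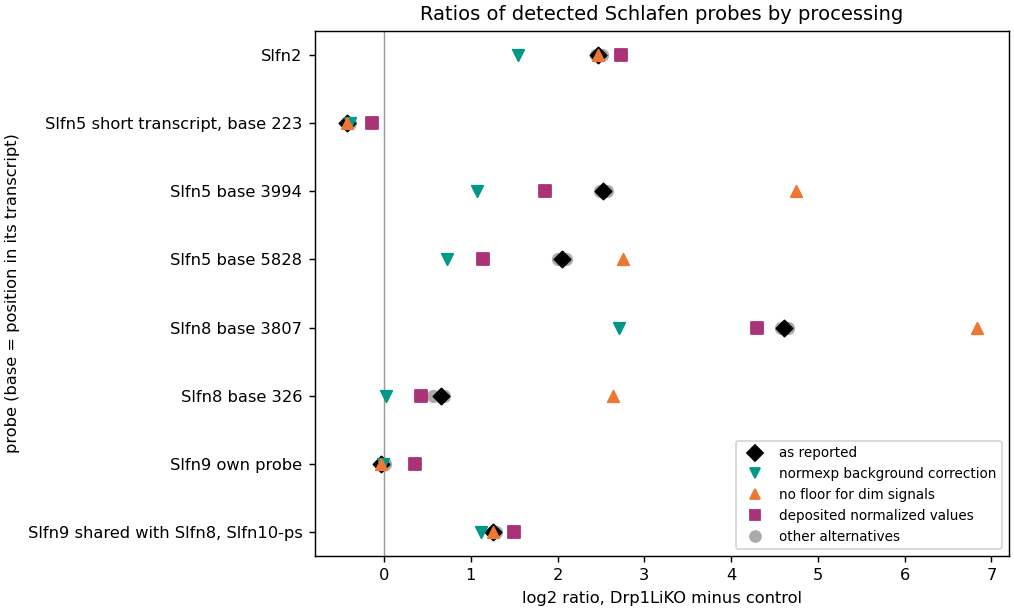
Log2 ratio of each detected Schlafen probe as reported (black diamonds) and under other processing (other symbols), 1 row per probe. The probes dim on the control array, such as Slfn8 at base 3807 (2.71 to 6.83), spread widely with the treatment of background, and of the probes measured on both arrays Slfn2 spreads most (1.55 to 2.73).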

How the data were processed

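The authors deposited the Feature Extraction output of 2 mouse Agilent arrays of 60-base probes, read in 1 color (Cy3), both on 1 slide and in 1 scan. Its processed signal is a linear intensity, from which the scanner software had subtracted background. The file headers name version 10.7.1.1 and the submitters' processing notes 9.5.1.1. The authors also deposited intensities normalized between arrays. In that table the Drp1LiKO column had a rank correlation of 0.958 with its array, so it served only as an alternative.

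Control spots and spots marked as outliers were not used. The remaining spots of a probe were averaged as log2 signals and scaled to the array's 75th percentile. Probes that either array read well above background were kept, and dim signals were set to the detection limit of their array. A gene was its brightest probe. The Schlafen genes, the gene lists and the rule for named genes (members, other Slfn entries, Dnm1l, genes within 300 kb, the extremes of each list, the 3 ratios nearest to that of Slfn2) were chosen with earlier results of these data known. Other genes named were chosen after their values were seen. Probe coordinates are those of the files (mm9), and promoters those of RefSeq (GRCm38.p6). Slfn8 has 2 RefSeq windows, of which 1 is printed.

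Alternatives were 3 other scalings, normexp background correction with an offset of 50, the deposited normalized intensities, 2 other filters, no floor, outlier spots kept, 2 other Z scores, the median of a gene's probes and, added after the data were seen, the brightest probe that lists 1 gene. The scaling, ratio and Z score steps were tested on simulated arrays. There the same probes were well above background on both arrays, so the step that gives bounds was not tested. The software was limma 3.58.1 in R 4.3.3, and pandas 2.3.3, numpy 2.4.6, matplotlib 3.10.9 and biopython 1.88 in Python 3.11.15.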

Additional observations from a re-analysis of the deposited data

How the results depend on the processing

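Between 2 and 3 Schlafen genes passed the threshold under every setting tried, and Slfn2 passed under each. Slfn9, at its shared probe, also passed with normexp, the deposited values, either other filter, and both other Z scores. These settings were not equally strict. The share of all genes higher past the threshold was 3.5% as reported and lowest with the deposited values (2.74%). It was highest, 8.54% (1722 of 20165), with the Z score that uses medians in place of the mean and SD. A pass under that Z score therefore says less. Slfn8 passed wherever it gave a ratio, which it did not with probes well above background on both arrays. Slfn5 also passed with the median of a gene's probes or with probes that list 1 gene. The median of 1.86 became 1.33 with normexp, 2.11 with the deposited values, 1.25 with probes well above background on both arrays, 2.26 with the median of a gene's probes and 2.50 with probes that list 1 gene. Without a filter it turned to -0.43, since the 3 undetected genes then enter at the ratio of the detection limits. Slfn5 turned to 2.05 with the median of its probes and to 2.53 with probes that list 1 gene, and Slfn9 to -0.032 with the latter. The scalings moved the median of all genes by less than 0.1 on the log2 scale. No paired analysis was possible because each genotype had 1 array. A single array per genotype limits every value: the spread between mice or cultures is unknown, and a probe near the detection limit gives a bound.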
